A study of Rattus norvegicus with 17 samples.

Results

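The genes described here are the conjugating enzymes of drug and toxin metabolism in rat hippocampus, with Nr1i3, the constitutive androstane receptor. They are the glutathione S-transferases (Gst and the microsomal Mgst), the UDP-glucuronosyltransferases (Ugt) and the sulfotransferases (Sult), chosen by gene symbol, and Nr1i3 was added by name. Of 60 such symbols in the table, 44 had at least 1 count in a library, out of 23963 such genes in all. The 44 members were 21 Gst genes, 3 Mgst genes, 8 Ugt1a genes, 3 other Ugt genes, 8 Sult genes and Nr1i3. The remaining 16 symbols stayed below 1 count in every library, and 8 of them were Ugt2 or Ugt3 genes, of which only Ugt2b10 and Ugt2b17 reached that level.

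Long-Evans rats were studied in 3 groups by the diet of the dam: a liquid diet with 6.7% ethanol (ET), a liquid control diet without ethanol pair-fed to it (PF), or chow ad libitum (AD). The diets ran from gestational day 0 to 20, after which every dam ate chow, and hippocampal RNA of the offspring was sequenced at 36 to 38 days of age. There were 5 ET, 6 PF and 6 AD rats, each group with 3 males, and the females numbered 2 in ET and 3 in each of the others. Of the 17 hippocampi, 4 were from the right side. Each group was 1 litter, so diet and litter cannot be told apart, and the p-values measure the spread between littermates only.

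Conjugation makes fat-soluble compounds easier to excrete. Glutathione S-transferases attach glutathione to reactive compounds, UDP-glucuronosyltransferases attach glucuronic acid to bilirubin, steroids and drugs, and sulfotransferases attach sulfate to steroids, phenols and catecholamines. The rat Ugt1a genes lie in one locus, where each has its own promoter and first exon and all are spliced to the same set of downstream exons. The constitutive androstane receptor is a nuclear receptor best known in liver, where foreign compounds activate it and UDP-glucuronosyltransferase, sulfotransferase and cytochrome P450 genes are among its targets. It was included here as a regulator of these enzymes.

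The libraries held between 10853947 and 17498392 counted fragments. The study left out 1 library of each group (ET replicate 2, PF animal 11f6 and AD replicate 4), and the main comparisons use the other 14 (4 ET, 5 PF and 5 AD). In those 3 libraries the summed level of 10 choroid plexus markers was 129000 to 152000 normalized counts, against 2840 to 23300 in the other 14. In AD replicate 6 the 6 pineal gland markers summed to 14100, against at most 113 in the other 13. The hippocampal neuron markers Prox1 and Wfs1 were present in every library, with 110 and 2440 normalized counts at the least. All 7 such markers summed to 8790 to 18200 in ET, 13600 to 19000 in PF and 10700 to 16200 in AD. The 8 thalamus markers summed to 1420 to 2750, 952 to 1470 and 1490 to 1630 in the same order. These sums are of the 14 libraries, and their part in the member values was not tested. Of the AD libraries, 2 did not match their sex labels. The sexes were compared in ET and PF only, the groups for which the paper's text gives this comparison. Values below are either counts, averaged by the authors over 3 technical runs, or normalized counts, which are scaled to one library size for all samples. In bulk tissue, fewer cells of a type and less RNA per cell cannot be told apart.

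Promoter sequences are shown for the members on which the diet comparisons turn. They come from RefSeq on the rat build GRCr8, are the 250 bases upstream of the annotated start, and read 5′ to 3′ on the strand of the gene. Capitals mark a match to one of the motifs named after them. Of the 44 members, 37 had a promoter there, and Ugt1a5 had none. Ugt1a6 and Ugt1a7c are shown because they held counts of their own in several groups, Ugt1a1 and Ugt1a9 because they held almost none outside PF, and Nr1i3 and Gstm3 because their counts were several times higher in PF.
Ugt1a1, chr9:96248893-96249142, + strand: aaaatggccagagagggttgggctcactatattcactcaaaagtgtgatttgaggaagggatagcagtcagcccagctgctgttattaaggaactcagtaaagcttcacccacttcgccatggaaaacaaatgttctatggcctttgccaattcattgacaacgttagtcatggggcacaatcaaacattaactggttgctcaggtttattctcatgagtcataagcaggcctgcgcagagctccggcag
Ugt1a6, chr9:96194768-96195017, + strand: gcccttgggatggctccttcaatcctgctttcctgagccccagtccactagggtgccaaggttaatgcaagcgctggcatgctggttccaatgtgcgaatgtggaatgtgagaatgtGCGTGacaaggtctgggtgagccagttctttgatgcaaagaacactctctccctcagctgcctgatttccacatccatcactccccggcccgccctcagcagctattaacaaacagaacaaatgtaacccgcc
Ugt1a7c, chr9:96187132-96187381, + strand: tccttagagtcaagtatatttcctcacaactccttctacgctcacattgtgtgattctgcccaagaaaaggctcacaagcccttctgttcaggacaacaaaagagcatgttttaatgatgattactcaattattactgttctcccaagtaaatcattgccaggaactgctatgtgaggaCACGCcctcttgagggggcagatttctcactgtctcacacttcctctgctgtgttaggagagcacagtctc
Ugt1a9, chr9:96144536-96144785, + strand: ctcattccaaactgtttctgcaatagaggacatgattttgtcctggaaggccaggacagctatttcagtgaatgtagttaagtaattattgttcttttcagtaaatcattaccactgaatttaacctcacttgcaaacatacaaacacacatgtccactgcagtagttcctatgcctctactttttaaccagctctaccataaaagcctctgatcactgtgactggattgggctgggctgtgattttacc
Nr1i3, chr13:86165170-86165419, + strand: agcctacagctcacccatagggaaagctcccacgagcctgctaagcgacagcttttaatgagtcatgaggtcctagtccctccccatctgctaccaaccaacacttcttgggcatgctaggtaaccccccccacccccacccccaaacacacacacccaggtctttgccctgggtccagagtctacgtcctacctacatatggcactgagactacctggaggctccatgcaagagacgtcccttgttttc
Gstm3 (Gstm3l in the count table), chr2:198300668-198300917, - strand: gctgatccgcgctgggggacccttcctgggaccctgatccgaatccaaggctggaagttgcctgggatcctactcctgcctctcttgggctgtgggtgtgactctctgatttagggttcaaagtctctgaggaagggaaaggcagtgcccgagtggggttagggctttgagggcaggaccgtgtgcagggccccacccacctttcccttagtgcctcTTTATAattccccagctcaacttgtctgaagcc
These are different promoters. Between pairs of the 7 Ugt1a promoters 16.8% to 32.4% of the bases were identical when compared position by position without gaps, and 49.2% to 60.4% in a global alignment in which gaps were allowed. On both strands 4 motifs were searched: TATAAA (the TATA box), AGGTCA (the half-site of many nuclear receptors), TGACNNNGC (the core of the antioxidant response element) and GCGTG (the core bound by the aryl hydrocarbon receptor). The first 3 were in 0 of 7 Ugt1a promoters, and GCGTG was in 4 of them (Ugt1a3, Ugt1a6, Ugt1a7c and Ugt1a8). Among all 33469 promoters of that length, TATAAA was in 12.9%, AGGTCA in 14.1%, TGACNNNGC in 10.1% and GCGTG in 25.9%. The Nr1i3 window held none of these letters, and the Gstm3 window held TATAAA on the opposite strand, so that it is printed as its complement. Over the 37 member promoters the motifs were in 8, 2, 5 and 12, in the order given above. A match in these windows is a run of letters and not a bound site.

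The question of the main comparison was how ethanol in the maternal diet relates to gene expression once caloric intake is matched, that is ET against PF. Of the 44 members, 35 had enough counts to be tested, and 10 were lower in ET: the 8 Ugt1a genes, Nr1i3 and the mu-class glutathione transferase Gstm3l. With the Ugt1a genes, which share exons, counted as 1 locus, the 10 became 3. A call required, in edgeR's quasi-likelihood test, an adjusted p-value under 0.01 together with a log2 fold change beyond 1.5 in size, and 2.13% of all 16068 genes tested were called lower by that rule. No member was called higher by edgeR or DESeq2, where 0.0373% of all genes were, and 2 members had a positive log2 fold change with an unadjusted p-value below 0.05 by either tool. Of all 16068 genes, 759 had the same in edgeR. The median log2 fold change was -0.09 over the members and 0.01 over all genes. The members' median was -0.0027 with all 17 libraries and -0.22 without the filter on low counts. Of the tested members, 7 Ugt1a genes and Gstm3l passed the filter on low counts only through PF, and in ET against AD they were not tested. The number of members called among those tested therefore depends on PF, the group where they were high. Without that filter all 44 members were tested, and the same 10 in ET against PF and the same 9 in PF against AD were called. Membership itself needed 1 count in a library, which Ugt1a2, Ugt1a3, Ugt1a5 and Ugt1a9 reached in PF only. Their calls without the filter therefore still depend on PF and are no separate support.

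Of the 10 members, Gstm3l and the Ugt1a genes other than Ugt1a6 and Ugt1a7c stayed at or below 3 counts in every ET and AD library. Nr1i3 and Ugt1a7c were above 3 counts in all of these libraries, and Ugt1a6 in some. For the 5 genes Ugt1a2, Ugt1a3, Ugt1a5, Ugt1a8 and Ugt1a9, every one of the 5 ET libraries held 0.0 to 1.0 counts and every one of the 6 AD libraries held 0.0 to 0.3. In PF each of the 6 libraries held 11.3 to 23 counts of each of these genes. Within a PF library the 5 genes differed by at most 0.7 counts, although each has its own promoter and first exon. The PF libraries were above the floor of 3 counts for all 5 genes, the ET and AD libraries were at or below it for all 5, and so the groups did not overlap.

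**Figure D1:**
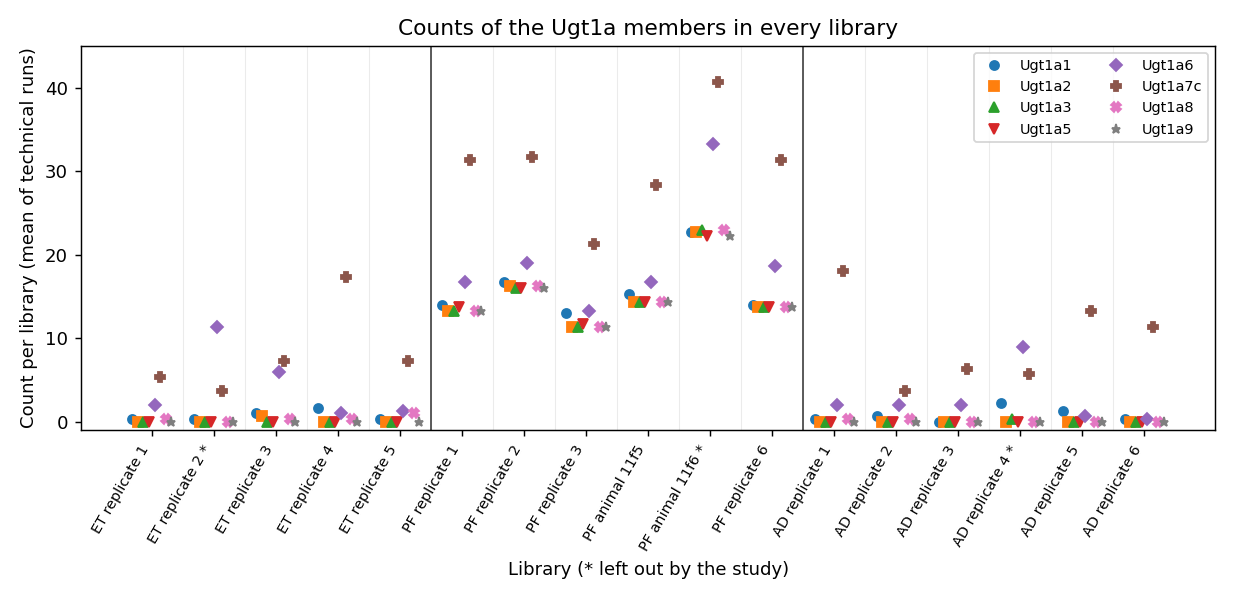
Counts of the 8 Ugt1a members (symbols) in each of the 17 libraries, in the order ET, PF and AD, as averages of technical runs on a linear axis. Ugt1a2, Ugt1a3, Ugt1a5, Ugt1a8 and Ugt1a9 lie on top of each other between 11.3 and 23 counts in PF and between 0.0 and 1.0 elsewhere, while Ugt1a7c lies above them in every library.

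Ugt1a9 shows the pattern of these 5 genes most plainly. Its normalized count was 0.0 in all 4 ET libraries of the main set, 13.4 ± 1.32 (SD, n = 5) in PF and 0.0 in all 5 AD libraries. Against the floor of 3 counts per library this was at least 4.4-fold higher in PF than in ET and at least 3.9-fold higher than in AD (adjusted p = 5.6e-05 and 1.7e-05, edgeR's quasi-likelihood test). Ugt1a9, like Gstm3l and the other Ugt1a genes except Ugt1a7c, passed the filter on low counts only through PF. The p-values of these genes do not allow for that. Ugt1a3, listed under another first exon, had the same mean of 13.4 ± 1.32 in PF and 0.0 in every ET and AD library of the main set. For Ugt1a2, Ugt1a5 and Ugt1a8 the PF means were 13.5, 13.6 and 13.5 normalized counts, and the bounds were at least 4.5-fold against ET and at least 3.9-fold against AD for each.

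Ugt1a1, the enzyme that conjugates bilirubin, was close to these 5 but had a few counts of its own. The ET libraries held 0.3, 0.3, 1.0, 1.7 and 0.3 counts in the order of their replicate numbers. The PF libraries held 14, 16.7, 13 and 14 (replicates 1, 2, 3 and 6), 15.3 (animal 11f5) and 22.7 (animal 11f6). The AD libraries held 0.3, 0.7, 0.0, 2.3, 1.3 and 0.3. Every PF library was thus above every ET and AD library. In the 14 libraries PF had 14.3 ± 1.13 normalized counts (SD, n = 5), at least 4.7-fold above ET (adjusted p = 0.00011) and at least 4.1-fold above AD (adjusted p = 3.3e-06, edgeR's quasi-likelihood test).

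Ugt1a6, which conjugates small planar phenols, had more counts outside PF. It held 2.0, 11.3, 6.0, 1.0 and 1.3 counts in ET replicates 1 to 5 and 2.0, 2.0, 2.0, 9.0, 0.7 and 0.3 in AD replicates 1 to 6. In PF it held 16.7, 19.0, 13.3 and 18.7 in replicates 1, 2, 3 and 6, 16.7 in animal 11f5 and 33.3 in animal 11f6. The highest ET and AD values, 11.3 and 9.0, were the libraries left out by the study, and both were below the lowest PF value. On the log2 scale ET over PF was -2.73 (SE 0.36, adjusted p = 0.0007, edgeR's quasi-likelihood test), and with all 17 libraries it was -2.17 (adjusted p = 0.024), which did not pass the threshold. Against AD, where all 5 libraries of the main set were at the floor, PF was at least 4.7-fold higher (adjusted p = 5.1e-06, edgeR's quasi-likelihood test).

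Ugt1a7c was the only Ugt1a member above the floor in every library. The counts were 5.3, 3.7, 7.3, 17.3 and 7.3 in ET replicates 1 to 5, and 18.0, 3.7, 6.3, 5.7, 13.3 and 11.3 in AD replicates 1 to 6. They were 31.3, 31.7, 21.3 and 31.3 in PF replicates 1, 2, 3 and 6, 28.3 in PF animal 11f5 and 40.7 in PF animal 11f6. ET and AD overlapped, and all PF libraries lay above both. The log2 fold change was -1.68 in ET over PF (SE 0.29, adjusted p = 0.005) and 1.42 in PF over AD (SE 0.32, adjusted p = 0.02, edgeR's quasi-likelihood test), so the first passed the threshold and the second did not. The first call was lost without ET replicate 1, 3 or 5, without PF replicate 1, 2 or 6 and without PF animal 11f5 (adjusted p of 0.014 to 0.025, edgeR's quasi-likelihood test), and it held without ET replicate 4 or PF replicate 3. Between ET and AD the log2 fold change was -0.26 (SE 0.5, adjusted p = 1.0), and it ran from -0.76 without ET replicate 4 to -0.08 without ET replicate 1.

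The lowest Ugt1a count of a library was subtracted from the counts of the other Ugt1a genes, as a description. The 8 genes have 8 different starts and 1 shared end in the GRCr8 annotation, and each overlaps the other 7 there. The lowest count was 0.0 in each of the 11 ET and AD libraries and 11.3 to 22.3 (median 14) in the 6 PF libraries. In ET replicate 4 and AD replicate 1 it was 0.0 although Ugt1a7c held 17.3 and 18.0 counts, so in ET and AD counts of one gene did not go with counts of all 8. The subtraction therefore need not measure the same thing in PF as in ET and AD, and exact permutation tests of the remaining counts, which were run, are not reported for that reason.

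For Ugt1a7c the count above the lowest one was 9.3 ± 5.4 in ET (SD, n = 4), 15.1 ± 3.3 in PF (n = 5) and 10.5 ± 5.7 in AD (n = 5). ET ran from 5.3 to 17.3, AD from 3.7 to 18.0, and PF, with at most 18.0, overlapped with both. For Ugt1a6 it was 2.6 ± 2.3, 3.1 ± 1.2 and 1.4 ± 0.8, and for Ugt1a1 it was 0.8, 0.9 and 0.5 counts on average. The remaining 5 genes had at most 1.0 counts above the lowest one in any library.

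Ugt1a6 stood out in the choroid-plexus-rich libraries. Its count above the lowest one was 11.3, 11 and 9.0 in the 3 libraries left out by the study (ET, PF and AD) and 0.3 to 6.0 in the other 14, so the 2 sets did not overlap. It was the only member whose normalized count was above every other library of its own diet group in all 3 of these libraries, at 13.7, 35.7 and 10.2. Whether the markers of that tissue have a part in it was not tested.

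**Figure D2:**
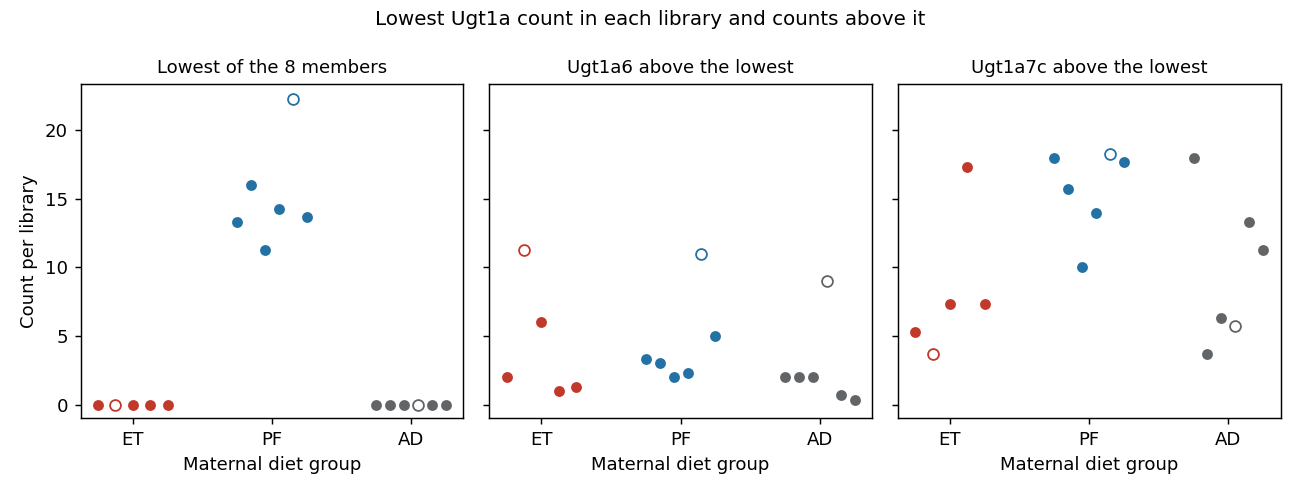
Count of the lowest Ugt1a member (left), and counts of Ugt1a6 (middle) and Ugt1a7c (right) above it, for each library by diet group; open circles are the 3 libraries left out by the study. The lowest count separates PF (11.3 to 22.3) from ET and AD (0.0), whereas the Ugt1a7c counts above it overlap in all groups and the Ugt1a6 counts above it are highest in the open circles.

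Nr1i3, like Gstm3l below, was a member outside Ugt1a that was called lower in ET than in PF. Its counts were 13.3, 7.7, 17.7, 15.7 and 14.7 in ET replicates 1 to 5 and 17.7, 22.7, 18.7, 12.7, 13 and 13 in AD replicates 1 to 6. In PF they were 63.3, 69.7, 57.0 and 74.7 in replicates 1, 2, 3 and 6, 64.7 in animal 11f5 and 62.7 in animal 11f6. No PF library came near the others. The lowest PF count was 57.0 and the highest count elsewhere was 22.7. The normalized means were 14.7 ± 1.14 in ET (SD, n = 4), 64.5 ± 6.06 in PF (n = 5) and 16.5 ± 1.76 in AD (n = 5). The log2 fold change was -2.11 in ET over PF (SE 0.13, adjusted p = 1.2e-06) and 1.93 in PF over AD (SE 0.12, adjusted p = 2.1e-07, edgeR's quasi-likelihood test). Between ET and AD it was -0.18 (SE 0.15, adjusted p = 1.0).

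Gstm3l, annotated as Gstm3 in GRCr8, was at or below the floor outside PF. It held 1.7, 2.3, 2.7, 0.0 and 1.7 counts in ET replicates 1 to 5 and 0.3, 1.0, 1.0, 0.7, 1.7 and 0.7 in AD replicates 1 to 6. In PF it held 13, 11, 11.7 and 10.7 in replicates 1, 2, 3 and 6, 11.3 in animal 11f5 and 11 in animal 11f6. The PF libraries lay close together and did not overlap with the rest. At 11.3 ± 0.838 normalized counts (SD, n = 5), PF was at least 3.7-fold above ET (adjusted p = 0.0011) and at least 3.2-fold above AD (adjusted p = 2.2e-05, edgeR's quasi-likelihood test). It belongs to a family of close paralogs, so its counts are uncertain where reads could not be placed between them. Gstm6l, another paralog with 0.7 to 1.3 counts in PF, 0.0 to 1.0 in ET and 0.0 to 0.3 in AD, stayed under the floor in all groups.

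**Figure D3:**
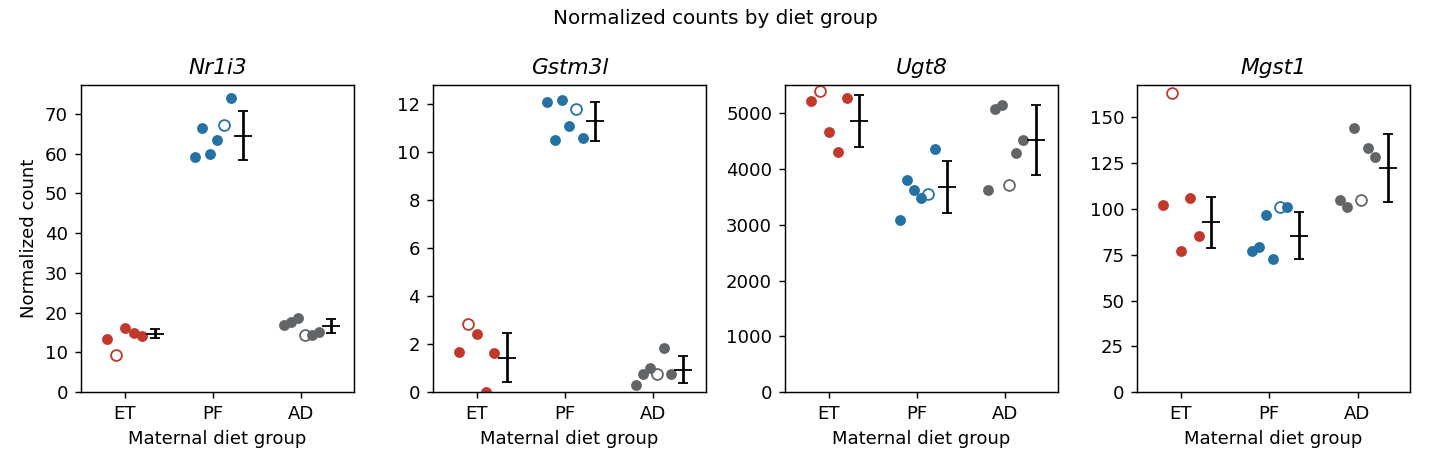
Normalized counts of Nr1i3, Gstm3l, Ugt8 and Mgst1 in each library by diet group, with filled points for the 14 libraries of the main set, open points for the 3 libraries left out, and bars for the mean ± SD of the filled points. Nr1i3 and Gstm3l in PF do not overlap with ET or AD, while the groups of Ugt8 overlap and those of Mgst1 differ by less.

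PF against AD asks what the liquid control diet and pair-feeding go with in the absence of ethanol. Of 35 members tested, 9 were higher in PF: the Ugt1a genes other than Ugt1a7c, Nr1i3 and Gstm3l. With the Ugt1a genes counted as 1 locus, the 9 became 3. By the same rule 2.02% of all 15960 genes tested were called higher. No member was lower in PF by edgeR or DESeq2, where 0.0251% of all genes were, and 2 members had a negative log2 fold change with an unadjusted p-value below 0.05 by either tool. Of all 15960 genes, 1081 had the same in edgeR. ET against PF and PF against AD share the PF libraries, so their values stand side by side and neither is support for the other. In ET against AD, which uses no PF library, 0 of 27 members were called by edgeR or DESeq2, and 0.0127% of all genes were. In that comparison 1 member, Mgst1, had an unadjusted p-value below 0.05 by either tool, and 2.74% of all genes had one in edgeR.

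Of the called members, the 8 Ugt1a genes and Nr1i3 overlap another annotated gene in GRCr8, and Gstm3l overlaps none. The Ugt1a genes overlap each other in 1 locus, and 7 of them passed the filter on low counts only through PF, so they are not separate cases. The other tested members that overlap a gene, 4 in number, which are Gstm4, Gstm7, Gstz1 and Sult2b1, were not called in any diet comparison. Nr1i3 overlaps Tomm40l, a gene related to the mitochondrial import channel, which had 699 ± 83.2 normalized counts in ET (SD, n = 4), 729 ± 73.5 in PF (n = 5) and 706 ± 44.1 in AD (n = 5). Dnajb3, a heat shock protein gene inside the Ugt1a locus, had 26.6 ± 6.02, 24.2 ± 3.79 and 27.3 ± 2.98. In ET over PF the log2 fold change was -0.06 (SE 0.1, adjusted p = 0.93) for Tomm40l and 0.16 (SE 0.18, adjusted p = 0.87, edgeR's quasi-likelihood test) for Dnajb3, and neither was called. The whole Nr1i3 mean in PF, 64.5 normalized counts, was below the SD of Tomm40l there. In Tomm40l a gain of that size would lie within the spread. Whether reads were shared between these genes was not tested.

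Over the whole table, 72.0% of the 343 genes called lower in ET and 71.8% of the 323 called higher in PF than in AD could be matched to GRCr8 by symbol, too few for the matched genes to stand for the rest, so only bounds are given. If every unmatched called gene overlapped none, 62.7% of the genes called lower in ET would overlap another gene, and if every unmatched gene did overlap one, 38.2% of all genes tested would. For the genes called higher in PF than in AD the same bounds were 61.9% and 38.1%. The authors describe 1 counting procedure for all libraries, in which a read could count for several features, and the setting for strand is not given in the sources used here. Without strand, reads of Nr1i3 and of an overlapping gene cannot be told apart. The counts of 5 Ugt1a genes were near-identical above the floor in PF only, and whether the PF libraries were in fact counted with the same settings for strand and overlapping genes was not tested. If they were not, the PF values of the Ugt1a genes and Nr1i3 could not be compared with those of ET and AD.

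Outside Gstm3l, 17 Gst genes were tested. Their log2 fold changes in ET over PF lay between -0.43 (Gstm2) and 0.29 (Gstm6), with 0 called in any diet comparison by either tool. The mu-class genes Gstm1, Gstm5 and Gstm7 are examples. Gstm1 had 1790 ± 117 normalized counts in ET (SD, n = 4), 1710 ± 192 in PF (n = 5) and 1780 ± 121 in AD (n = 5). Gstm7 had 2010 ± 100, 1840 ± 87.2 and 1910 ± 233, and its log2 fold change in ET over PF was 0.13 (SE 0.06, unadjusted p = 0.045, adjusted p = 0.4, edgeR's quasi-likelihood test). Both genes overlapped between the groups.

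Gstm5 had 667 ± 236 normalized counts in ET, 708 ± 138 in PF and 793 ± 73.5 in AD. Gsto1, an omega-class transferase that reduces dehydroascorbate, had 1140 ± 99.3, 1070 ± 127 and 1120 ± 77.1. Its log2 fold change was 0.09 (SE 0.09) in ET over PF and 0.02 (SE 0.07) in ET over AD. Gstm4 had the smallest unadjusted p-value among these 17 genes, in PF over AD, where it was 0.0073 and PF was higher by 0.27 on the log2 scale (SE 0.08, adjusted p = 0.1, edgeR's quasi-likelihood test). Gsta2, Gsta3 and Gstm6l did not pass the filter on low counts, with at most 6.7 counts in any library.

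Of the microsomal transferases, which sit in membranes and also handle lipid peroxides, Mgst1 came nearest to a difference. Its normalized counts were 102, 76.9, 106 and 85.4 in ET replicates 1, 3, 4 and 5, and 76.8, 79.0, 96.8, 101 and 72.9 in PF replicates 1, 2, 3 and 6 and animal 11f5. In AD replicates 1, 2, 3, 5 and 6 they were 105, 101, 144, 133 and 128. The lowest AD library and the highest PF library both rounded to 101, with PF just below, and ET overlapped both groups. The log2 fold change in PF over AD was -0.52 (SE 0.13, adjusted p = 0.037), and in ET over AD it was -0.4 (SE 0.14, unadjusted p = 0.015, adjusted p = 1.0, edgeR's quasi-likelihood test). Neither passed the threshold. In the ET library left out by the study Mgst1 was at 163. The 3 blood markers were lower in PF, with summed levels of 2410 to 5330 normalized counts against 5430 to 7510 in ET and 5380 to 7830 in AD, and none of them was at 0 in a library. Their median log2 fold change was -0.78 in PF over AD and -0.06 in ET over AD. Other marker medians in PF over AD were -0.35 (thalamus), -0.29 (oligodendrocytes) and 1.12 (choroid plexus). The part of any of these markers in the Mgst1 values was not tested. Mgst3 had 422 ± 50.7, 485 ± 117 and 440 ± 37.5 normalized counts in ET, PF and AD. Mgst2 had at most 7.3 counts and was not tested.

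Ugt8 is the Ugt gene of myelin rather than of detoxification. It makes galactosylceramide, the main glycolipid of the myelin sheath. Its normalized counts were 5220, 4670, 4300 and 5270 in ET replicates 1, 3, 4 and 5. They were 3090, 3810, 3630 and 4350 in PF replicates 1, 2, 3 and 6 and 3480 in animal 11f5, and 3620, 5070, 5150, 4280 and 4510 in AD replicates 1, 2, 3, 5 and 6. ET was mostly above PF, with an overlap at 4300 and 4350. The log2 fold change was 0.41 in ET over PF (SE 0.1, unadjusted p = 0.0022, adjusted p = 0.053) and -0.3 in PF over AD (SE 0.11, unadjusted p = 0.016, adjusted p = 0.16, edgeR's quasi-likelihood test). Neither reached the threshold. The 6 oligodendrocyte markers moved alongside: 5 of 6 had an unadjusted p-value below 0.05 with higher values in ET than in PF, their median log2 fold change was 0.39, and their summed level was 269000 to 349000 normalized counts in ET, 197000 to 270000 in PF and 231000 to 329000 in AD. None of the 6 was at 0 in a library, 0 of 6 passed the threshold, and their part in the Ugt8 values was not tested. Over all genes, 759 of 16068 had an unadjusted p-value below 0.05 with higher values in ET than in PF (edgeR's quasi-likelihood test). Ugt2b10 and Ugt2b17, members of the steroid-conjugating subfamily, had at most 1.3 and 1.7 counts in any library.

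Among the sulfotransferases, 0 of the 5 tested genes were called in any diet comparison by edgeR or DESeq2. Sult4a1, the brain form of the family, had 5210 ± 494 normalized counts in ET (SD, n = 4), 5150 ± 125 in PF (n = 5) and 5380 ± 203 in AD (n = 5), and its log2 fold change in ET over PF was 0.02 (SE 0.07). Sult1d1, which takes catecholamines, had 144 ± 39.6, 149 ± 15.6 and 137 ± 22.8. Sult5a1 had 53.7 ± 6.91, 45.1 ± 5.87 and 38.4 ± 12.9, and its ET over AD value was 0.5 on the log2 scale (SE 0.23, unadjusted p = 0.055, adjusted p = 1.0, edgeR's quasi-likelihood test).

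Sult1a1, a phenol sulfotransferase, had the smallest unadjusted p-value of the sulfotransferases in ET against PF. It had 133, 126, 144 and 121 normalized counts in ET replicates 1, 3, 4 and 5, and 221, 149, 148, 149 and 144 in PF replicates 1, 2, 3 and 6 and animal 11f5. The AD libraries lay at 109, 113, 121, 155 and 186. All PF libraries lay above ET, although the closest values of both round to 144, and AD spanned both. The log2 fold change in ET over PF was -0.31 (SE 0.14, unadjusted p = 0.048, adjusted p = 0.41, edgeR's quasi-likelihood test), which did not pass the threshold. Without PF replicate 1, the library at 221, it was -0.17 (SE 0.08). Sult1c2a, Sult1c3 and Sult6b1 were not tested for low counts. Sult1c2a, singled out after its values were seen, held 4.7 to 7.0 counts in the 5 ET libraries, 1.3 to 4.7 in the 6 PF libraries and 0.7 to 3.0 in the 6 AD libraries. With AD at the floor, ET was at least 1.6-fold above it in the main set, and without the filter on low counts this did not pass the threshold (adjusted p = 1.0, edgeR's quasi-likelihood test).

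**Figure D4:**
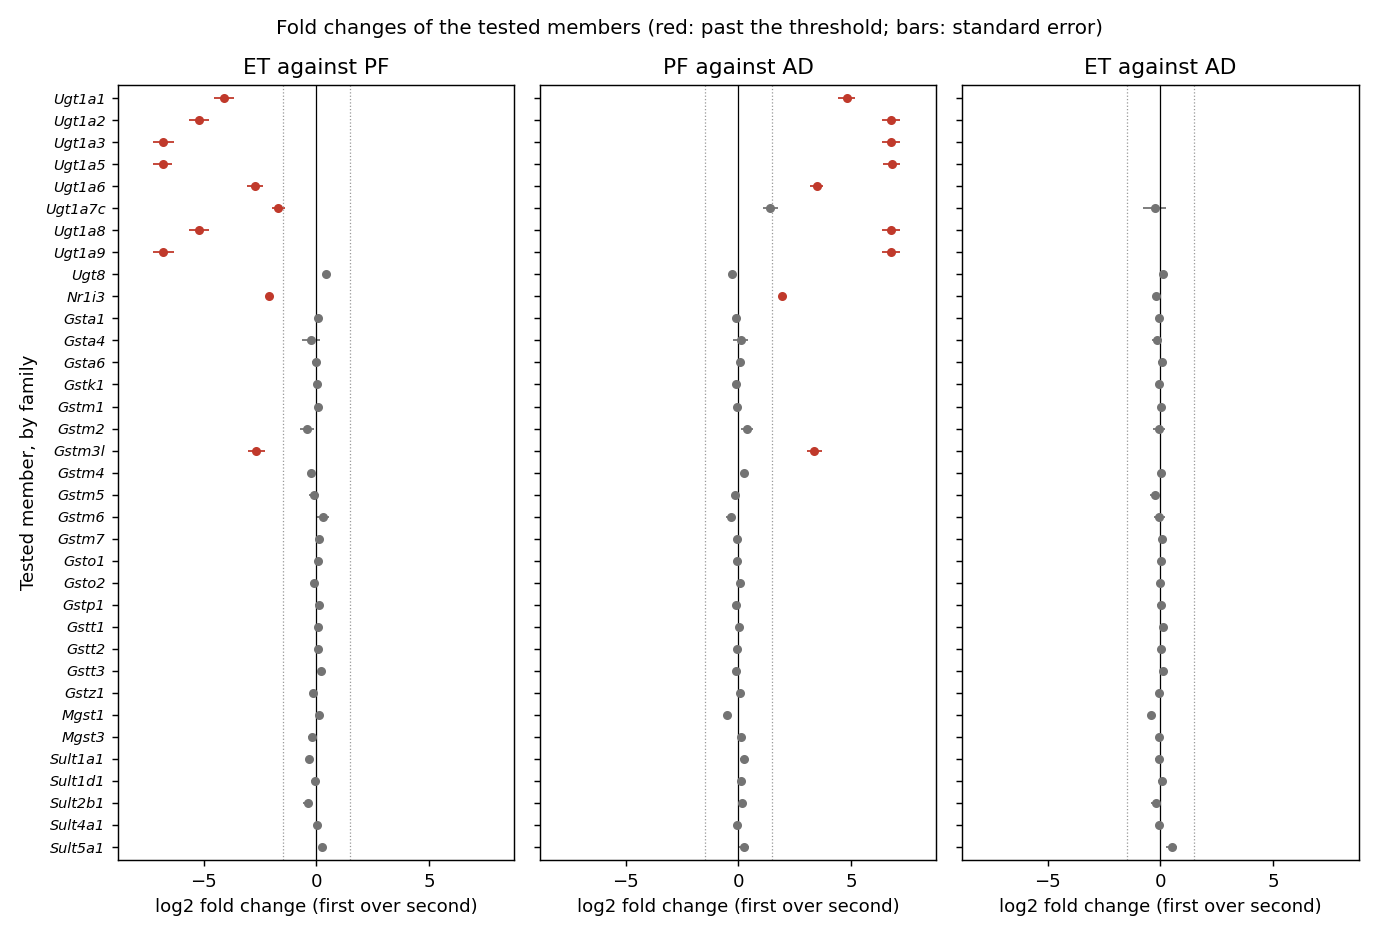
Fitted log2 fold changes (points) with their standard errors (bars) of the tested members, by family, in ET against PF, PF against AD and ET against AD; red marks members past the threshold and dotted lines mark a log2 fold change of 1.5 in either direction. The values of Ugt1a genes and Gstm3l depend on the fit where a group is at the floor. Outside Ugt1a, Nr1i3 and Gstm3l every point lies between -0.52 and 0.5.

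The sexes were compared in ET and PF together, with diet in the model. By this fit 0 of 35 members were called between males and females by edgeR or DESeq2, where 0.0311% of all genes were. Both tools gave 2 members an unadjusted p-value below 0.05. In edgeR's quasi-likelihood test these were Gsta4, at 0.98 on the log2 scale in males over females (SE 0.28, adjusted p = 1.0), and Gstm4, at 0.33 (SE 0.08, adjusted p = 1.0). Without ET replicate 1 the number was 7, with 1464 of all genes in place of 301, and without any other single library it was 2 or 3. Nr1i3 had 0.11 (SE 0.12). For the interaction of sex and diet, which asks whether the ET to PF difference itself differs between the sexes, 0 members were called by edgeR or DESeq2 and 0.0% of all genes. In edgeR 1 member, Ugt1a6, had an unadjusted p-value below 0.05, with a log2 difference of -2.02 (SE 0.73, adjusted p = 1.0), and in DESeq2 0 did. Without ET replicate 3 this number was 5, with 2396 of all genes in place of 231. It was 2 without ET replicate 5 or PF animal 11f5, 0 without ET replicate 4 or PF replicate 6, and 1 without any of the others. Leaving out any ET library, PF animal 11f5 or PF replicate 6 leaves 1 library of that sex and diet, which the fit takes to vary like the others, so these counts are no measure of stability.

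The wider pathway was checked in 73 genes, for the supply of donors, glutathione metabolism, other conjugation, cytochrome P450 oxidation, receptors and transport. Of these, 62 were tested in each diet comparison, and neither edgeR nor DESeq2 called any (0 of 62) in ET against PF or ET against AD, where 2.13% of all genes were called lower in ET than in PF and 0.0127% in either direction between ET and AD. In ET against PF edgeR gave 5 a negative and 3 a positive log2 fold change with an unadjusted p-value below 0.05, against 3 and 2 in DESeq2. In ET against AD both tools gave 1 such gene. The median log2 fold change of the 62 genes was 0.0 in ET over PF, against 0.01 over all genes. In PF against AD 1 of the 62 genes was called higher by either tool and 0 lower, where 2.02% of all genes were called higher, so the count was near that background.

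That gene was Hpgds, the hematopoietic prostaglandin D synthase, which is itself a sigma-class glutathione transferase. It had 26.7 ± 2.71 normalized counts in ET (SD, n = 4), 74.3 ± 5.21 in PF (n = 5) and 24.7 ± 3.02 in AD (n = 5). Over all 17 libraries it lay between 69.0 and 84.0 in PF and between 18.5 and 29.1 elsewhere, so PF did not overlap with the other groups. On the log2 scale Hpgds was at 1.57 in PF over AD (SE 0.1, adjusted p = 5.4e-07) and -1.47 in ET over PF (SE 0.11, adjusted p = 7.7e-06, edgeR's quasi-likelihood test), and the second missed the fold threshold only. Hpgds overlaps Smarcad1 in GRCr8. The donor genes for glucuronic acid and sulfate (10 tested) had log2 fold changes from -0.2 to 0.14 in ET over PF, and the 10 tested cytochrome P450 genes from -0.18 to 0.36. Of the 12 xenobiotic receptors and regulators listed besides Nr1i3, 9 were tested, 0 were called in any diet comparison by edgeR, and 1, 1 and 2 had an unadjusted p-value below 0.05 in ET against PF, ET against AD and PF against AD. Over all genes tested that share was 11.9%, 2.74% and 16.4% in the same order (edgeR's quasi-likelihood test). The exporter Abcg2, which carries conjugates out of cells, had 190 ± 46.9 normalized counts in PF and 111 ± 27.8 in AD, at 0.77 on the log2 scale (SE 0.2, adjusted p = 0.049, edgeR's quasi-likelihood test), which did not pass the threshold.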

How the data were processed

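RNA from 17 hippocampi was sequenced as stranded paired-end mRNA libraries. Reads were trimmed by the authors with fastp and aligned with Bowtie2 2.4.2 (rat build mRatBN7.2), and featureCounts 2.0.1 then assigned fragments to the exons of 34322 genes; a mapping quality of 10 was the minimum and one read could count for several features. The strand setting and annotation release are not given in the sources used here. The values the authors deposited are featureCounts counts that they averaged over 3 technical replicates without normalization, handled here like an expected count because they need not be whole. Of the deposited values 53.3% were within 1e-06 of a whole number, the 32.6% at 0 included.

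Members were found by symbol. The members and the lists of pathway and marker genes were chosen with earlier results of these data known. Named are every member past the threshold, every Ugt1a gene, Nr1i3, the 3 tested members with the highest mean count in each family and the member with the smallest p in each diet comparison, plus a few singled out as stated or used as examples. Samples were grouped by diet from the labels; the 3 libraries left out were those the study named, and 2 PF libraries keep animal names because the labels do not tie them to a replicate number.

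Counts were rounded, filtered with filterByExpr and scaled by TMM, and 2 groups of the 14 libraries were compared in R 4.3.3 with edgeR 4.0.16 (quasi-likelihood test) and Benjamini-Hochberg adjustment over all genes tested. A call needed an adjusted p under 0.01 and a log2 fold change beyond 1.5 in size. The SE is the absolute log2 fold change divided by the square root of F. Normalized counts are TMM-scaled to the mean library size of the 17 samples. Over all genes the median log2 fold change was within 0.01 of 0. A group with every library at or under 3 counts was treated as at the floor, bounds are computed against 3 counts in each library of that group, and they cover counting error only, since fragments carry no molecular identifiers. The fits were tested on simulated data. Over 40 pairs of libraries of one group, none agreed within sampling noise (lowest chi-square per gene 3.06). Which genes overlap was taken from a GRCr8 gene list, another build than the authors', with 43 of 44 members matched; promoters are from RefSeq on GRCr8. Alternatives were DESeq2 1.42.0, median-of-ratios scaling, no filter, sums of technical replicates, other fold thresholds, sex as a covariate, 1 fit of the 3 groups, all 17 samples, the replicate number as a block, the Ugt1a genes as 1 locus and leaving out each replicate.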

Additional observations from a re-analysis of the deposited data

Results flagged for a closer look

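Single libraries were checked for values far from the rest of their group in 49 groups of a named member and a diet, by the gap to the nearest value over the range, and chance marks about 1 in 20 such groups. In PF, 1 library was far above the other 5 for 7 of the 8 Ugt1a genes, and it was each time animal 11f6, a library the study left out. Its normalized counts were 24.3 for Ugt1a1 (others 13.1 to 15.9), 24.3 for Ugt1a2, 24.7 for Ugt1a3, 23.9 for Ugt1a5, 35.7 for Ugt1a6 (others 14 to 18.5), 24.7 for Ugt1a8 and 23.9 for Ugt1a9. These 7 genes share exons, so the 7 values are not independent of each other. AD replicate 4, also left out by the study, was at 10.2 for Ugt1a6 where the other 5 AD libraries were at 0.387 to 2.0. ET replicate 4 was at 16.6 for Ugt1a7c, against 4.44 to 7.11 in the other ET libraries. Outside Ugt1a, PF replicate 3 was at 465 for Gstm5 (others 711 to 810), PF replicate 6 at 690 for Mgst3 (others 412 to 472) and PF replicate 1 at 221 for Sult1a1 (others 144 to 151).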

How the results depend on the processing

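Over 952 recomputed values of 55 log2 fold changes, 903 kept their direction and their side of the threshold, 24 fell below the threshold, 1 rose above it and 24 changed sign. The 10 members lower in ET than in PF and the 9 higher in PF than in AD each became 3 when the 8 Ugt1a genes were counted as 1 locus. Blocking on replicate number, in fits that also lacked the unnumbered PF animal 11f5, the calls were 0 and 4, and over all genes 194 were lower in ET, against 343. Without that animal and without the block they were 9 and 9, and 322 over all genes. In the blocked fits all 10 and all 9 kept their direction and a log2 fold change beyond 1.5 in size (Nr1i3 -1.99 against -2.11 and Ugt1a7c -2.11 against -1.68 in ET over PF), and the adjusted p-values were 0.011 to 0.21 and 0.00075 to 0.022 (edgeR). The numbers belong to different animals and were not taken to pair the samples. Same-numbered deviations correlated from -0.02 to 0.63 (2 pairs) for ET and PF, -0.29 to 0.12 (3) for ET and AD and -0.03 to 0.07 (4) for PF and AD. Different-numbered ones correlated from -0.56 to 0.46 (18), -0.47 to 0.65 (17) and -0.36 to 0.38 (21). With so few same-numbered pairs these values cannot settle whether the numbers pair the samples. Outside the block, the losses were Ugt1a6 with all 17 libraries and Ugt1a7c in 1 fit of the 3 groups (adjusted p = 0.014, edgeR) and in the 7 left-out libraries named above, all in ET over PF, and the gain was Ugt1a7c in PF over AD with all 17 libraries (1.62). Signs changed for members that were not called, at sizes of at most 0.16. In the blocked fits these were Gstm1 (-0.04) and Gstm5 (0.09) in ET over PF, Gstm1 (-0.02), Gstm7 (-0.01), Gsto1 (-0.08) and Sult1d1 (-0.16) in ET over AD, and Gstm1 (0.0) and Gstm7 (0.05) in PF over AD, and with all 17 libraries Gstm5 in ET over PF (0.01). Leaving out 1 library at a time gave ranges in ET over PF of -0.34 to 0.08 for Gstm5, -0.19 to 0.12 for Sult1d1 and -0.05 to 0.07 for Sult4a1. In ET over AD they were -0.04 to 0.03 for Gstm1, -0.02 to 0.07 for Gsto1, -0.13 to 0.01 for Mgst3, -0.13 to 0.08 for Sult1a1, -0.07 to 0.24 for Sult1d1 and -0.11 to 0.0 for Sult4a1, and in PF over AD -0.09 to 0.02 for Gstm7 and -0.02 to 0.19 for Mgst3. The cause of these changes was not tested. At 3 counts or fewer in ET and AD, how much lower most Ugt1a genes and Gstm3l are there cannot be measured at this depth.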
